A study of Mus musculus with 2 samples.

Results

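The 69 genes described here encode the ligands and receptors of axon guidance: secreted and membrane-bound semaphorins (Sema3 to Sema7), their plexin and neuropilin receptors, Slits and Robos, ephrins and Eph receptors, and netrins with the Unc5 receptors. The rule that picks them reads only gene symbols, and it was set with earlier results of these data known. It was applied to the 25507 symbols shared by both count tables. The 69 were 20 semaphorins, 11 plexin rows, 2 neuropilins, 8 ephrins, 14 Eph receptors, 3 netrins, 4 Unc5 genes, 4 Robos and 3 Slits. 67 encode proteins and 2, Plxna4os1 and Plxna4os2, are antisense transcripts that begin with a plexin symbol and were counted among the plexins.

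The study profiled single cells of the embryonic mouse pancreas at E14.5, when endocrine cells form from the ductal trunk epithelium. It holds 2 libraries, both labelled wild type, from cells enriched by flow sorting for low and high signal of Ngn3eGFP, a reporter of the Neurog3 gene that marks endocrine progenitors, and encapsulated by inDrop droplet sequencing. The sort selects for the endocrine lineage, so shares of cells describe the sorted suspension and not the organ. The labels do not say whether the libraries came from separate embryos, litters or pools. Library is a block in the tests, so the p-values below weigh group differences against how far these vary between the 2 libraries. That variation may be technical.

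Guidance ligands steer growing axons by binding receptors on the growth cone: class 3 semaphorins act through neuropilin and plexin complexes, Slits through Robos, netrins through Dcc and Unc5 receptors, and ephrins through Eph receptors on touching cells. The same proteins are used outside the nervous system for cell sorting, adhesion, branching and vessel growth. Netrins and ephrins are also known in pancreatic epithelium, where cells leave the ducts as they become endocrine.

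Cells were grouped by raw UMIs (unique molecular identifiers, each standing for 1 captured transcript) of marker genes, and every group was summed within each library. Library 1 gave 515 cells after filters and library 2 gave 1070. The Spp1 trunk group (Spp1 is a secreted ductal protein) held 116 and 240 cells, the Neurog3-high group 86 and 135, and the Chgb-positive hormone-low group (Chgb is an endocrine granule protein) 84 and 126. Hormone-low here means below the insulin and Gcg gates only, and other hormones were not gated. The Gcg-positive group (glucagon) held 29 and 56 cells, the insulin-high group 40 and 100, the Cpa1-high group (an exocrine and tip enzyme) 6 and 71, and the Csf1r-positive group (a macrophage receptor) 7 and 38. A further 141 and 297 cells passed no gate. Levels are CPM, UMIs of a gene scaled to the UMI total of its group. They are compared between groups and not between genes, and a cut at a given CPM need not mark the same transcript abundance in every gene. Intervals on a single level are 95% Poisson intervals and cover counting error only. Groups cut from a count are ranges, not types: 48 and 70 cells held 5 to 9 Neurog3 UMIs, just inside the Neurog3 threshold.

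The 5 larger epithelial and endocrine groups were compared with each other. Lists of marker genes of other cells were read in all 5: 8 endothelial genes summed to 78.6 to 177 CPM, 8 mesenchymal genes to 151 to 261 CPM, 6 Schwann and neural crest genes to 60.9 to 175 CPM, and 10 macrophage genes to 118 to 225 CPM. Most of these markers were above 0: in Gcg-positive cells, 5 and 6 of the 8 endothelial genes were, among them Pecam1 at 0 and 36.5 CPM, while Cdh5 and Cldn5 were at 0 in both libraries. Ptprc, an immune gene, lay at 53.7 to 94.9 CPM in the 5 groups and at 370 and 233 CPM in Csf1r-positive cells. Many cells held at least 2 UMIs of the endothelial, mesenchymal and Schwann lists together, called other-lineage UMIs below. They were 55 of 116 and 79 of 240 trunk, 32 of 86 and 41 of 135 Neurog3-high, and 35 of 84 and 55 of 126 Chgb-positive hormone-low cells. In the hormone groups they were 14 of 29 and 24 of 56 Gcg-positive and 22 of 40 and 37 of 100 insulin-high cells. The part of RNA from other cells in the levels below was not tested. The Chgb-positive hormone-low group was not free of other hormones. Its delta-cell genes (Sst, Hhex and Rbp4) summed to 1198 and 3157 CPM, against 205 and 414 CPM in the trunk. Ghrl, Ppy and Pyy summed to 1933 and 2317 CPM there, 149 and 201 CPM in the trunk and 9454 and 9534 CPM in Gcg-positive cells. Cell cycle genes differed with the groups: 8 of them summed to 1920 and 2089 CPM in the trunk, 860 and 569 CPM in Neurog3-high cells, and 293 to 426 CPM in the other 3 groups.

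The promoters of Sema3g and Epha7 are shown because these genes differ from trunk to Neurog3-high cells in opposite directions. NEUROG3 is a basic helix-loop-helix factor, a family that binds the E-box, CANNTG. The windows are the 250 bases before the RefSeq start, on the plus strand of GRCm38.p6, with every CANNTG in capitals. Sema3g lies at chr14:31217623-31217872 and Epha7 at chr4:28812881-28813130.
Sema3g: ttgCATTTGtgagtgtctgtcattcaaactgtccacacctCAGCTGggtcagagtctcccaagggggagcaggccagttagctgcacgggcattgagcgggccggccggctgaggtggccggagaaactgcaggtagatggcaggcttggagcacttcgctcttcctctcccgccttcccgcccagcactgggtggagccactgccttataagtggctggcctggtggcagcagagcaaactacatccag
Epha7: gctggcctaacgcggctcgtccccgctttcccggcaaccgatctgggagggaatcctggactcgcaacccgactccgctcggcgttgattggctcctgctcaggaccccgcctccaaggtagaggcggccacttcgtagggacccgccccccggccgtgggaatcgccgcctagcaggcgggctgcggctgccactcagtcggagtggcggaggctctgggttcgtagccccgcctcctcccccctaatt

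The Sema3g window holds 2 CANNTG matches, CATTTG and CAGCTG, and the Epha7 window holds 0. CANNTG reads the same on both strands, and CAGCTG is one of its forms. Of 32851 RefSeq windows of this length, 66.2% hold at least 1 CANNTG, 31.8% at least 2 and 13% a CAGCTG. 58 of the 69 members matched a window, of which 27 (46.6%) hold a CANNTG and 10 (17.2%) a CAGCTG. Other members that passed the test below varied. Ntn4, Efnb1 and Sema6c, with their highest group mean in Neurog3-high cells, hold 0 CANNTG, and Sema3c, highest in the trunk, holds 2. Ephb4, Sema4d and Sema6d hold 1, Nrp1 and Unc5a hold 0, and Sema3f and Plxna1 matched no window. The matches are letters in a window and were not tested as binding sites.

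Of the 69 members, 40 passed the filter on low counts (82 to 1109 UMIs over all kept cells) and 29 did not (13 to 114 UMIs). None had 0 UMIs. All members together made 11634 UMIs, which is 2832 and 2531 CPM of the trunk, 2667 and 2200 CPM of Neurog3-high cells, 2010 and 1880 CPM of Chgb-positive hormone-low cells, 2278 and 1684 CPM of Gcg-positive cells and 1882 and 1708 CPM of insulin-high cells. In both libraries the trunk had the highest sum of the 5 groups. 18 members reached 50 CPM in both libraries in at least 1 of the 5 groups. Across 6 comparisons, 13 members passed an adjusted p of 0.05 in at least 1 (edgeR quasi-likelihood test over 10089 genes, library as a block), in 22 results. The 13 are 32.5% of the 40 tested, and 25.4% of all genes tested passed in at least 1. Both libraries taken singly had the same sign in 22 of the 22, as they did in 4495 of 4502 called results over all genes, so the shared sign is not particular to the members. By family, the members that passed were 6 of 13 tested semaphorins, 2 of 7 Eph receptors, 1 of 7 plexins, 1 of 2 neuropilins, 1 of 4 ephrins, 1 of 2 Unc5 genes, the 1 tested netrin, 0 of 2 Slits and 0 of 2 Robos (at an unadjusted p under 0.05 in edgeR, Slit1 in 3 comparisons and Robo1 in 2, and 0 by DESeq2). These families are too small to compare.

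**Figure D1:**
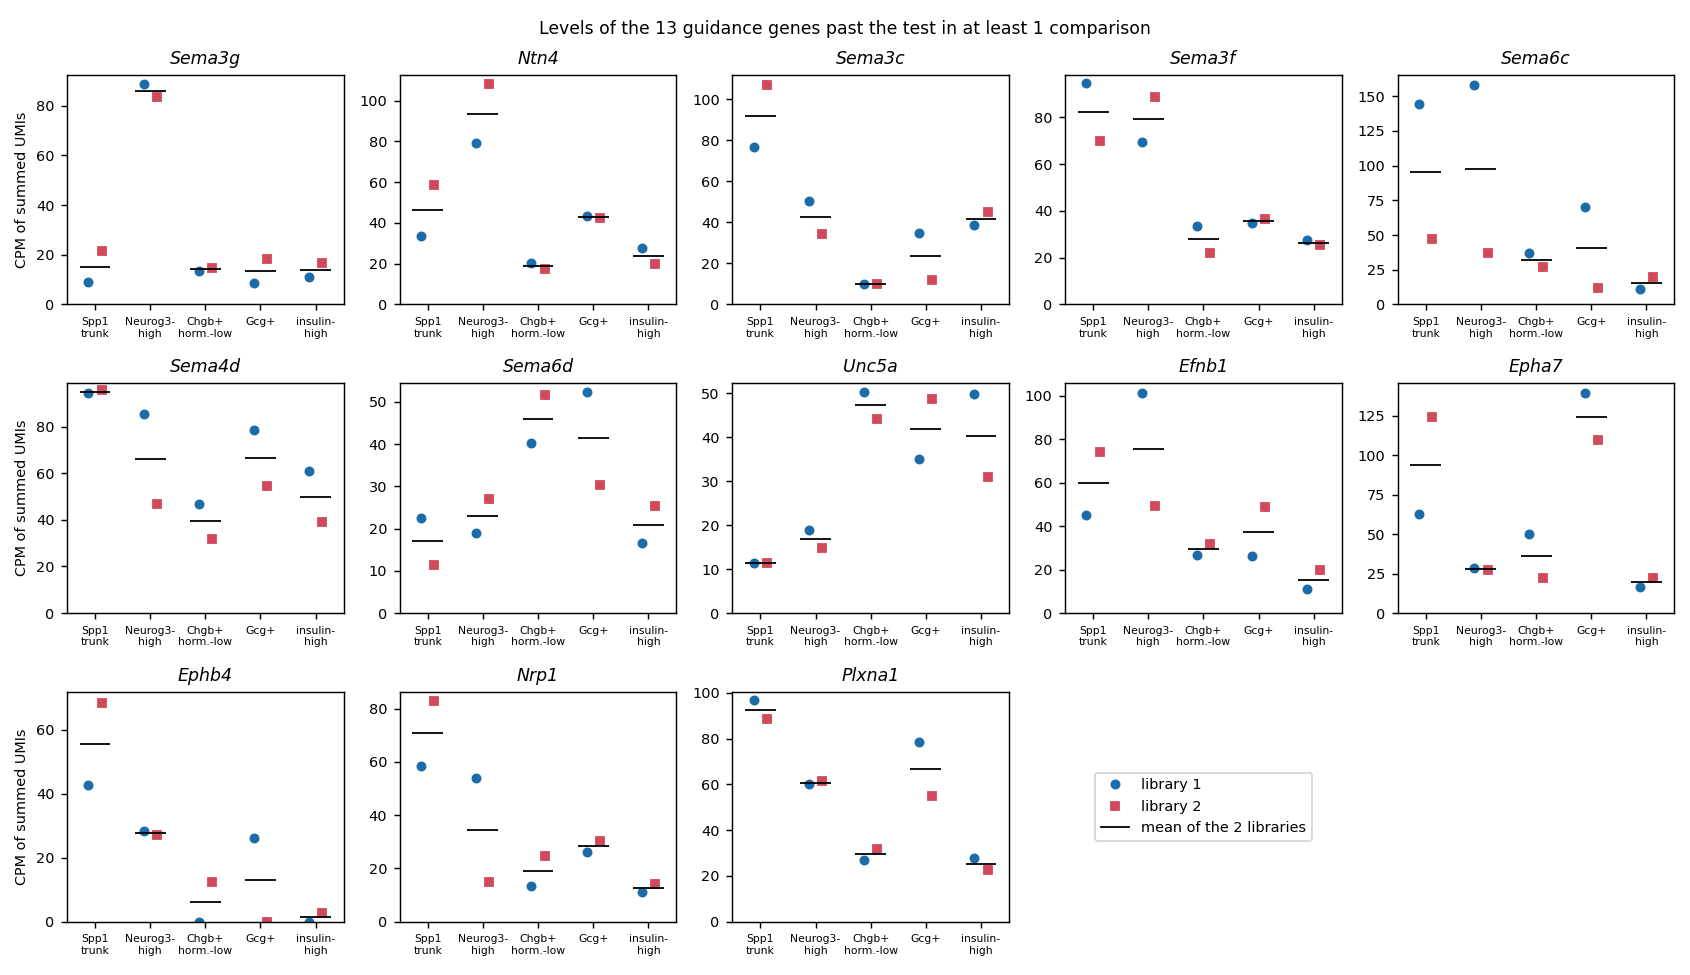
CPM of summed UMIs of the 13 members that passed the test in at least 1 comparison, in 5 cell groups, with each library as a point and the mean as a line. Sema3g stands at 88.6 and 83.7 CPM in Neurog3-high cells and at 8.73 to 21.4 CPM in the other 4 groups.

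From trunk to Neurog3-high cells, Sema3g was the member that rose and Epha7 the member that fell. 1 of 40 tested members passed as higher, where 4.95% of all genes did, and 1 of 40 as lower, where 3.52% did, so the members moved no more often than the background. The median difference over the members was -0.07 on the log2 scale and 0.01 over all genes tested.

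Sema3g encodes a secreted class 3 semaphorin known from vessels (chromosome 14, 31217860 to 31230352, plus strand, GRCm38). It stood at 9.01 and 21.4 CPM in the trunk and at 88.6 (interval 58.9 to 128) and 83.7 CPM (58.0 to 117) in Neurog3-high cells, from 28 and 34 UMIs. In Chgb-positive hormone-low cells it was at 13.4 and 14.7 CPM, in Gcg-positive cells at 8.73 and 18.2 CPM and in insulin-high cells at 11.1 and 16.8 CPM. Both Neurog3-high sums lay above every other sum of these 5 groups. The difference from trunk was 2.47 ± 0.46 on the log2 scale (SE, n = 2 libraries, edgeR adjusted p = 7.91e-05), and 3.19 and 1.97 in the single libraries. The fall from Neurog3-high to Chgb-positive hormone-low cells was -2.69 ± 0.52 (edgeR adjusted p = 8.58e-05). Both comparisons share the Neurog3-high cells. Without cells holding at least 2 UMIs of other-lineage markers, Sema3g fell under the low-count filter and was not tested. A Sema3g UMI was found in 18.6% and 18.5% of Neurog3-high cells against 2.59% and 5.42% of trunk cells, and after thinning every cell to 1500 UMIs in 13.1% and 13.3% against 2.73% and 2.79%. No Sema3g UMI was found in the 45 Csf1r-positive cells (median depth 2724 and 2989.5 UMIs, against 3241.5 and 2879 in Neurog3-high cells), which allows a share of up to 6.67% of cells with a captured UMI and sets no limit on cells that express the gene.

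Epha7, an ephrin-A receptor of the tyrosine kinase family (chromosome 4, 28813131 to 28967499, plus strand), stood at 63.1 and 124 CPM in the trunk and 28.5 and 27.1 CPM in Neurog3-high cells, from 28 and 87 against 9 and 11 UMIs. Trunk sums lay above Neurog3-high sums in both libraries. The difference was -1.73 ± 0.42 (SE, n = 2 libraries, edgeR adjusted p = 0.00271), and -1.09 and -2.11 in the single libraries. The call was lost under DESeq2 (-1.76, adjusted p = 0.0878) and after thinning to 1500 UMIs (-1.40, edgeR adjusted p = 0.0834).

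Spp1 trunk, Neurog3-high and ungated cells were also pooled and binned by Neurog3 UMIs in the single cell. The bins of 0 and 1 to 4 hold the ungated cells, a mixed group. There the delta-cell genes summed to 1826 and 4782 CPM, and Ghrl, Ppy and Pyy to 3552 and 5095 CPM. The 8 mesenchymal genes summed to 627 and 1888 CPM. The part of these cells in the bins was not tested. Sema3g in library 1 stood at 10.5, 61.1, 107, 44.4 and 159 CPM in cells with 0, 1 to 4, 5 to 9, 10 to 19 and at least 20 Neurog3 UMIs. In library 2 the values were 20.9, 48.0, 78.0, 33.8 and 190 CPM. In both libraries the bin without Neurog3 was lowest, the bin of 20 or more was highest, and the bin of 10 to 19 fell below its neighbours. That last bin rests on 6 and 5 UMIs, and the top bin on 8 and 15 UMIs in 11 and 19 cells. Epha7 was at 54.2 and 91.8 CPM in cells without Neurog3 and at 0 and 12.7 CPM in the top bin, where 0 and 1 UMI were counted. Median depth also differed along the bins, from 3101 and 2603 UMIs per cell without Neurog3 to 4187 and 4201 in the top bin, and its part in these levels was not tested.

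**Figure D2:**
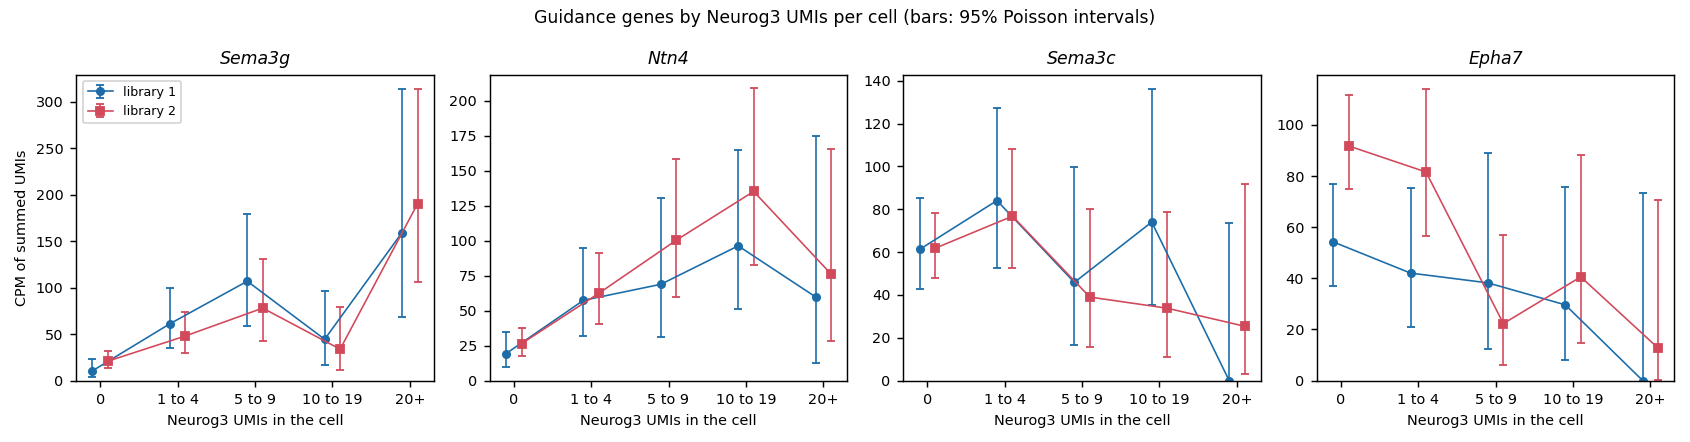
CPM of summed UMIs of guidance genes in Spp1 trunk, Neurog3-high and ungated cells binned by Neurog3 UMIs, per library, with 95% Poisson intervals. Sema3g is lowest in cells with 0 Neurog3 UMIs (10.5 and 20.9 CPM) and highest in those with 20 or more (159 and 190 CPM), and the intervals of neighbouring bins are wide.

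From Neurog3-high to Chgb-positive hormone-low cells, 6 of 40 tested members (15.0%) passed as lower, where 6.72% of all genes did, and 0 of 40 as higher, where 4.25% did. At an unadjusted p under 0.05 in edgeR, 11 were lower and 1 was higher, and DESeq2 called 2 lower and 0 higher. Over all 10089 genes, 2162 had an unadjusted p under 0.05 in either direction. The fitted difference was negative for 28 of the 40 and positive for 12, where it was negative for 5096 of all genes and positive for 4993. The median was -0.40 on the log2 scale over members, against -0.01 over all genes tested. DESeq2's 2 of 40 (5.0%) stand beside 3.13% of all genes. Fewer members passed the filter in smaller or thinned sums: 2 of 32 (6.25%) were lower without cycling cells, where 6.06% of genes were, 2 of 24 (8.33%) without cells holding at least 2 UMIs of other-lineage markers, where 4.70% were, and 2 of 18 (11.1%) after thinning, where 7.48% were. The 6 were Ntn4, Efnb1 and the semaphorins Sema3c, Sema3f, Sema3g and Sema6c, all of them ligands. Ligands were also many of the 40 tested: 13 semaphorins, 4 ephrins, 1 netrin and 2 Slits. A difference between ligands and receptors was not tested.

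Ntn4 encodes netrin-4, a laminin-binding secreted protein of basement membranes (chromosome 10, 93640681 to 93747207, plus strand). It stood at 33.8 and 58.6 CPM in the trunk, 79.1 and 108 CPM in Neurog3-high cells, 20.1 and 17.2 CPM in Chgb-positive hormone-low cells, 43.6 and 42.6 CPM in Gcg-positive cells and 27.7 and 19.6 CPM in insulin-high cells. Neurog3-high sums were the highest of the 5 groups in each library. The difference between Chgb-positive hormone-low and Neurog3-high cells was -2.43 ± 0.46 (SE, n = 2 libraries, edgeR adjusted p = 6.40e-05), and -2.01 and -2.69 in the single libraries. Against the trunk, Neurog3-high cells were 1.05 ± 0.37 higher, which did not pass (edgeR adjusted p = 0.0636). The Neurog3-high level came from few cells: 25 UMIs in 12 cells and 44 UMIs in 16 cells.

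Sema3c, a class 3 semaphorin that acts through neuropilins (chromosome 5, 17574281 to 17730268, plus strand), stood at 76.6 and 107 CPM in the trunk, 50.6 and 34.5 CPM in Neurog3-high cells, 10.1 and 9.83 CPM in Chgb-positive hormone-low cells, 34.9 and 12.2 CPM in Gcg-positive cells and 38.7 and 44.9 CPM in insulin-high cells. The order from trunk to Neurog3-high to Chgb-positive cells was the same in both libraries. The fall from Neurog3-high cells was -2.13 ± 0.59 (SE, n = 2 libraries, edgeR adjusted p = 0.00923), and from trunk it was -3.24 ± 0.51 (edgeR adjusted p = 8.13e-07), with -2.86 and -3.37 in the single libraries. Sema3f, another class 3 semaphorin, was at 69.6 and 88.6 CPM in Neurog3-high cells and 33.6 and 22.1 CPM in Chgb-positive hormone-low cells, a difference of -1.65 ± 0.43 (edgeR adjusted p = 0.00506), and -1.12 and -2.06 in the single libraries.

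Efnb1, a transmembrane ephrin, fell from 101 and 49.2 CPM to 26.9 and 31.9 CPM, a difference of -1.41 ± 0.46 (edgeR adjusted p = 0.0322), with -1.97 in library 1 and -0.71 in library 2. Sema6c, a membrane-bound semaphorin, differed more between libraries than between some groups: it was at 144 and 47.1 CPM in the trunk and 158 and 36.9 CPM in Neurog3-high cells. Its fall to 36.9 and 27.0 CPM in Chgb-positive hormone-low cells was -1.51 ± 0.44 (edgeR adjusted p = 0.0135), and -2.16 in library 1 but -0.54 in library 2. With cycling cells left out, the falls of Efnb1, Sema3c, Sema3f and Sema6c no longer passed (edgeR adjusted p = 0.231, 0.269, 0.0740 and 0.0773). Their differences there were -1.08, -1.39, -1.33 and -1.34, against -1.41, -2.13, -1.65 and -1.51 with all cells. The falls of Ntn4 and Sema3g passed (edgeR adjusted p = 0.000289 and 0.000141). DESeq2 called Ntn4 and Sema3g of the 6, and without cells holding other-lineage UMIs Sema3c, Sema3f and Sema6c did not pass (-2.04, -1.32 and -1.02).

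**Figure D3:**
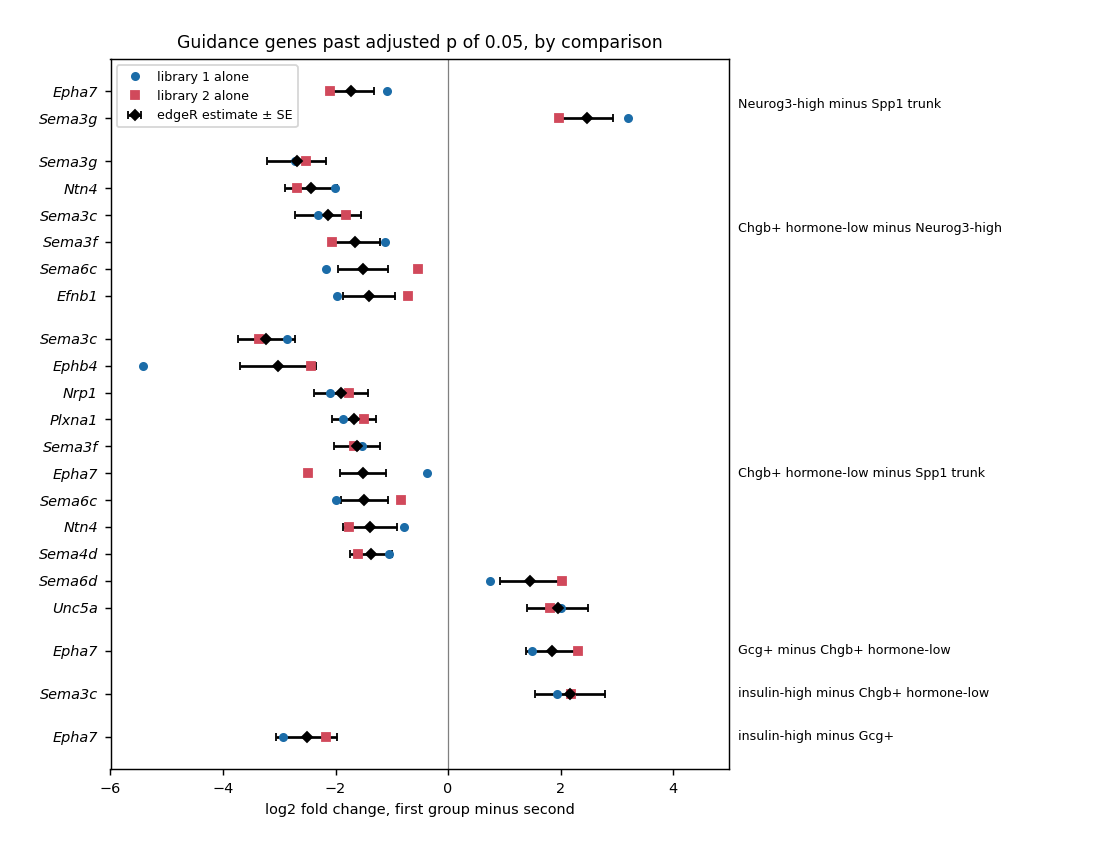
Log2 fold changes of the member results that passed an adjusted p of 0.05, by comparison, with the edgeR estimate and its SE as a diamond and each library alone as a point. The single-library values lie on the same side of 0 in all 22 results, and they differ most for Ephb4 and for Epha7 from trunk to Chgb-positive hormone-low cells.

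From trunk to Chgb-positive hormone-low cells, 9 of 40 tested members (22.5%) passed as lower, where 9.84% of all genes did, and 2 of 40 (5.0%) as higher, where 8.12% did. The median over members was -0.38 and 0.02 over all genes tested. The 9 lower were the ligands Ntn4, Sema3c, Sema3f, Sema4d and Sema6c and the receptors Epha7, Ephb4, Nrp1 and Plxna1. The 2 higher were Sema6d and Unc5a.

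The receptors among them fell as follows. Nrp1, a neuropilin that carries class 3 semaphorins and VEGF (chromosome 8, 128358604 to 128503363), was at 58.6 and 82.8 CPM in the trunk, 53.8 and 14.8 CPM in Neurog3-high cells and 13.4 and 24.6 CPM in Chgb-positive hormone-low cells. Its difference from trunk was -1.90 ± 0.49 (SE, n = 2 libraries, edgeR adjusted p = 0.00251). Plxna1, a plexin-A receptor that signals with neuropilins, was at 96.9 and 88.5 CPM in the trunk and 26.9 and 31.9 CPM in Chgb-positive hormone-low cells, a difference of -1.68 ± 0.39 (edgeR adjusted p = 0.000890). Trunk levels were higher than those of Chgb-positive cells in both libraries for each of these receptors. Ephb4, an ephrin-B receptor known from veins (chromosome 5, 137350109 to 137378669), was at 42.8 and 68.5 CPM in the trunk, with 19 and 48 UMIs, and at 0 and 12.3 CPM in Chgb-positive hormone-low cells, with 0 and 5 UMIs. Its difference of -3.02 ± 0.67 (edgeR adjusted p = 0.000414) depends on how the 0 is treated. Epha7 was at 50.3 and 22.1 CPM there, a difference of -1.51 ± 0.40 (edgeR adjusted p = 0.00406), which was -0.38 in library 1 and -2.49 in library 2.

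Among the ligands, Sema4d, a membrane-bound ligand of B-type plexins, stood at 94.6 and 95.7 CPM in the trunk and at 47.0 and 31.9 CPM in Chgb-positive hormone-low cells (-1.37 ± 0.37, SE, edgeR adjusted p = 0.00443). Sema3f differed by -1.62 ± 0.41 (edgeR adjusted p = 0.00242), Sema6c by -1.49 ± 0.42 (0.00668; -2.0 and -0.83 in the single libraries) and Ntn4 by -1.39 ± 0.49 (0.0354; -0.78 and -1.76). Unc5a, a netrin receptor (chromosome 13, 54949411 to 55006018), rose from 11.3 and 11.4 CPM in the trunk to 50.3 and 44.2 CPM, a difference of 1.95 ± 0.54 (edgeR adjusted p = 0.00579). It was also at 34.9 and 48.6 CPM in Gcg-positive and 49.8 and 30.8 CPM in insulin-high cells, so each endocrine sum lay above each trunk sum. Sema6d rose from 22.5 and 11.4 to 40.3 and 51.6 CPM (1.46 ± 0.52, edgeR adjusted p = 0.0422), with 0.75 in library 1 and 2.03 in library 2.

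The trunk and Chgb-positive cells also differ in cell cycle genes, given above. Within the trunk, cells with at least 3 cell cycle UMIs and the other cells had Epha7 at 58.5 and 67.6 CPM in library 1 and 142 and 107 CPM in library 2. Without cycling cells, the falls of Epha7, Nrp1, Ntn4, Plxna1, Sema3c, Sema3f, Sema4d and Sema6c and the rise of Unc5a still passed, and Sema6d did not (edgeR adjusted p = 0.222). Ephb4 was not tested there. Without cells holding other-lineage UMIs, Nrp1, Plxna1, Sema3f and Sema6c did not pass, with differences of -2.14, -1.57, -1.20 and -1.18 from fewer cells. After thinning, Epha7 (-1.11), Ntn4 (-1.86) and Plxna1 (-1.60) did not pass. Ntn4 lost the call in 6 of 13 alternatives, with differences from -2.66 to -1.0. DESeq2 called 3 of the 9 lower, Ephb4, Plxna1 and Sema3c, and 0 of the 2 higher.

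Between hormone groups, few members moved, as few genes did. From Chgb-positive hormone-low to Gcg-positive cells, 1 of 40 passed as higher, where 0.674% of all genes did, and 0 as lower, where 0.674% did (2 lower at an unadjusted p under 0.05, 0 by DESeq2, which gave no adjusted p for 35 of the 40). From Chgb-positive hormone-low to insulin-high cells, 1 of 40 passed as higher, where 1.94% did, and 0 as lower, where 0.872% did (1 lower at an unadjusted p under 0.05, 0 by DESeq2). From Gcg-positive to insulin-high cells, 0 passed as higher, where 1.92% did (3 at an unadjusted p under 0.05, 0 by DESeq2), and 1 as lower, where 1.14% did. DESeq2 gave no adjusted p for 26 of the 40 in this last comparison.

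Epha7 was the member that differed between Gcg-positive cells and the other endocrine groups. It was at 140 (interval 79.8 to 227) and 109 CPM (64.9 to 173) there, against 50.3 and 22.1 CPM in Chgb-positive hormone-low and 16.6 and 22.4 CPM in insulin-high cells. In each library the Gcg-positive level was the highest of these 3 groups, and the trunk, at 63.1 and 124 CPM, was in the same range. Gcg-positive cells were 1.86 ± 0.47 above Chgb-positive hormone-low cells (SE, n = 2 libraries, edgeR adjusted p = 0.0199). Insulin-high cells were -2.52 ± 0.54 from Gcg-positive cells (edgeR adjusted p = 0.00135), with -2.93 and -2.18 in the single libraries, and DESeq2 kept this call (adjusted p = 0.0148). Both comparisons share the Gcg-positive cells. They rest on 16 and 18 UMIs in 8 and 10 of 29 and 56 cells. The rise did not pass without cycling cells (edgeR adjusted p = 0.314), and without cells holding at least 2 UMIs of other-lineage markers neither Epha7 difference did (1.33 and -2.48 on the log2 scale). Over all alternatives the rise lost the call in 6 of 12.

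Sema3c was at 38.7 and 44.9 CPM in insulin-high cells against 10.1 and 9.83 CPM in Chgb-positive hormone-low cells, a difference of 2.17 ± 0.62 (edgeR adjusted p = 0.0353) from 7 and 16 against 3 and 4 UMIs. DESeq2 gave an adjusted p of 0.331 for it, and without cycling cells edgeR gave 0.198. Robo1, a Slit receptor, and Slit1, one of its ligands, were at 60.9 and 42.1 CPM and at 49.8 and 47.7 CPM in insulin-high cells, and at 3.16 to 22.5 CPM and 6.76 to 27.1 CPM in the other 4 groups. These 2 genes were chosen after their values were seen. Neither passed against Chgb-positive hormone-low cells (edgeR adjusted p = 0.163 for Robo1 and 0.319 for Slit1). Efna2, a GPI-anchored ephrin, was at 17.5 and 24.3 CPM in Gcg-positive cells against 99.6 and 67.3 CPM in insulin-high cells, and missed the threshold (edgeR adjusted p = 0.0576).

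Members that did not pass still include genes with many UMIs. Plxnb2, a receptor of class 4 semaphorins with 1109 UMIs, stood at 275 and 240 CPM in the trunk, 228 and 251 CPM in Neurog3-high cells, 151 and 201 CPM in Chgb-positive hormone-low cells, 157 and 146 CPM in Gcg-positive cells and 227 and 177 CPM in insulin-high cells. Against the trunk, the Chgb-positive hormone-low level missed the threshold (-0.58 ± 0.23, edgeR adjusted p = 0.0686). Slit2, a secreted repellent, was at 46.8 to 101 CPM and Ephb2, an ephrin-B receptor, at 43.6 to 104 CPM over the 10 sums, with no comparison passing.

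The other members that reached 50 CPM in both libraries of a group without passing were Efna2 (17.5 to 101 CPM over the 10 sums), Plxna2 (6.08 to 78.6 CPM), Plxnb1 (12.2 to 103 CPM), Robo2 (22.2 to 103 CPM), Sema5a (18.0 to 72.8 CPM), Sema6a (26.2 to 151 CPM) and Unc5c (18.2 to 140 CPM). Robo2, a Slit receptor, stood at 56.3 and 31.4 CPM in the trunk, 53.8 and 22.2 CPM in Neurog3-high, 50.3 and 51.6 CPM in Chgb-positive hormone-low, 61.1 and 103 CPM in Gcg-positive and 49.8 and 92.5 CPM in insulin-high cells. Gcg-positive cells had the highest level in each library, and no comparison passed. Unc5c, a netrin receptor, was at 140 and 18.2 CPM in the Gcg-positive sums of the 2 libraries (intervals 79.8 to 227 and 3.76 to 53.3), which differ by more than counting error. Sema6a was at 151 and 106 CPM in the trunk and 26.2 and 36.5 CPM in Gcg-positive cells, and against Chgb-positive hormone-low cells its difference of -1.72 ± 0.50 missed the threshold (edgeR adjusted p = 0.0677).

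The Cpa1-high and Csf1r-positive groups were fitted with the other 5 in a model of 7 groups, added after the data were seen. In Csf1r-positive cells, Nrp1 was at 370 CPM (interval 149 to 762, 7 UMIs in 7 cells) and 657 CPM (520 to 818, 79 UMIs in 38 cells), above both trunk sums. It was 2.88 ± 0.40 above the trunk (SE, edgeR adjusted p = 6.99e-11), with 1.90 and 3.11 in the single libraries. Single-library values come from levels rescaled between sums (TMM), so they differ from folds of the plain CPM printed here. A Nrp1 UMI was found in 42.9% and 76.3% of these cells. Of 42 tested members, 2 passed as higher, where 4.56% of all genes did, and 5 as lower, where 4.26% did. The other higher member, Plxnc1, rests on 1 and 7 UMIs. The 5 lower were Sema3c, Plxnb1, Sema3f, Efna2 and Epha7. Sema3c and Plxnb1 had 0 UMIs in the 45 cells, which allows a share of up to 6.67% of cells with a UMI, and taking the floor of 3 UMIs over the group they were at least 4.42-fold and 2.47-fold lower than in the trunk.

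In Cpa1-high cells, 1 of 42 members passed as higher, where 3.39% of all genes did, and 3 as lower, where 3.08% did. Plxna2, a plexin-A receptor, was at 131 and 139 CPM against 63.1 and 61.4 CPM in the trunk (1.29 ± 0.43, edgeR adjusted p = 0.0421). Sema6a, a membrane-bound ligand of A-type plexins, was at 21.9 and 36.3 CPM against 151 and 106 CPM (-1.62 ± 0.52, edgeR adjusted p = 0.0311). Efna2 had 1 and 2 UMIs, at 21.9 and 5.58 CPM against 76.6 and 81.4 CPM. Efnb3 had 0 UMIs in 77 cells, at least 3.30-fold below the trunk by the floor of 3 UMIs. Library 1 gave only 6 Cpa1-high and 7 Csf1r-positive cells. At least 3 cell cycle UMIs were held by 5 of 6 and 62 of 71 Cpa1-high cells, against 50 of 116 and 105 of 240 trunk cells. Median depth was 6682.5 and 4563 UMIs in Cpa1-high cells, against 3655.5 and 2686 in the trunk. The part of either in these differences was not tested.

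**Figure D4:**
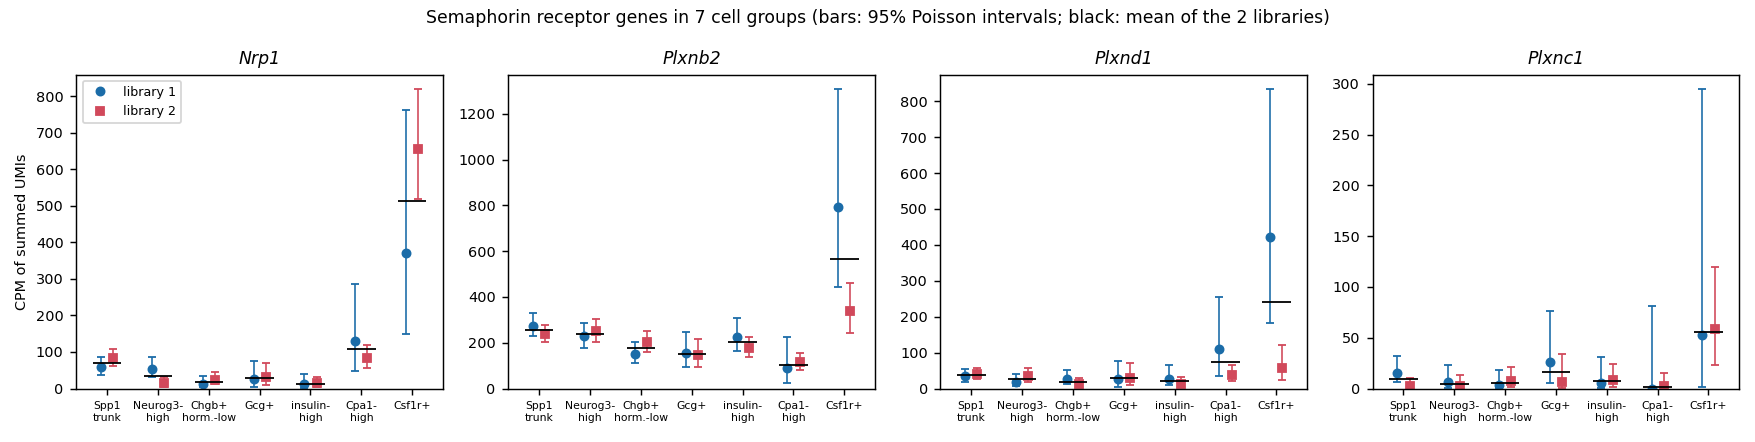
CPM of semaphorin receptor genes in 7 cell groups, with each library as a point, 95% Poisson intervals and the mean of the libraries as a line. Nrp1 stands at 370 and 657 CPM in Csf1r-positive cells, and at 131 and 83.7 CPM in Cpa1-high cells.

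To see which ligands and receptors were found together, 106 known ligand-receptor pairs were read across the 25 ordered combinations of the 5 groups. A pair counted as present where both transcripts reached 50 CPM in both libraries. 7 pairs did so in at least 1 combination: Efna2 with Epha7, Sema3c with Nrp1, Sema4d with Plxnb1, Sema4d with Plxnb2, Sema5a with Plxna1, Sema6a with Plxna2, and Slit2 with Robo2. Sema3c with Nrp1 was found only from trunk to trunk. The trunk had 4 pairs with itself and 4 with Chgb-positive hormone-low cells, and insulin-high cells had 0 with themselves. That 0 lies at the cut: in insulin-high cells Slit2 was at 94.1 and 50.5 CPM and Robo2 at 49.8 and 92.5 CPM. At 25 CPM insulin-high cells had 8 pairs with themselves, and the trunk had 25 with itself and 13 with Chgb-positive hormone-low cells. At 25 CPM, 35 pairs were present, and at 100 CPM, 0. The counts depend on this cut, which need not mark the same abundance in every gene. Presence of transcripts is a description and not a measure of signalling.

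**Figure D5:**
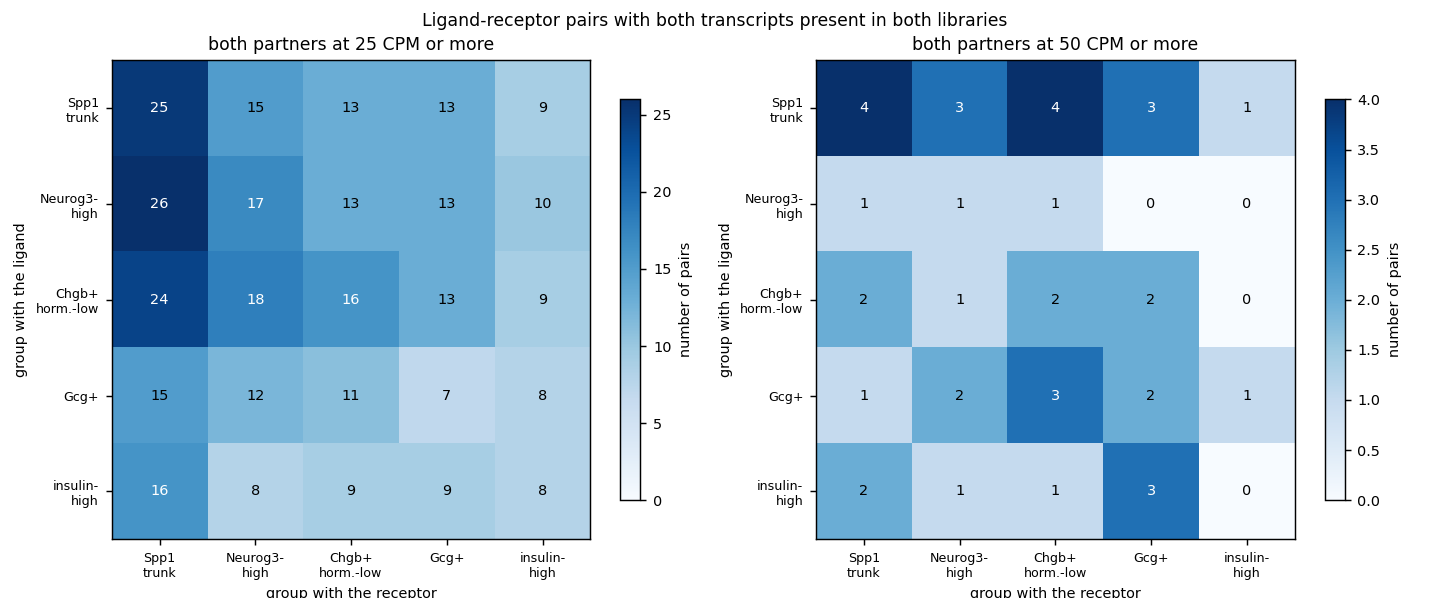
Number of ligand-receptor pairs, of 106 listed, with both transcripts present in both libraries, for each group giving the ligand and each group giving the receptor, at each cut-off. At 50 CPM 7 different pairs appear, and at 25 CPM 35.

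Among 73 further genes of the guidance response, such as cytoplasmic effectors, Flrt and Rgm ligands and co-receptors, 67 were in the tables and 53 were tested. In Neurog3-high against trunk cells, 3 were higher (5.66%, where 4.95% of all genes were) and 4 lower (7.55%, where 3.52% were), among them Cxcl12, a chemokine (-1.79 ± 0.25, edgeR adjusted p = 1.13e-07), and Rgma, a repulsive guidance ligand (-2.36 ± 0.49, 0.000343). Cxcl12 fell from 365 and 514 CPM to 111 and 135 CPM, and Rgma from 87.9 and 77.1 CPM to 12.7 and 17.2 CPM, so the groups did not overlap. From Neurog3-high to Chgb-positive hormone-low cells, 1 was higher (1.89%, where 4.25% of all genes were) and 4 lower (7.55%, where 6.72% were). The 1 higher, Pak3, a kinase of the Rac and Cdc42 pathway, rose from 72.8 and 88.6 CPM to 463 and 568 CPM (2.57 ± 0.22, edgeR adjusted p = 9.87e-15), and was at 670 and 763 CPM in insulin-high cells. Against the trunk, 3 were higher in Chgb-positive hormone-low cells (5.66%, where 8.12% of all genes were) and 8 lower (15.1%, where 9.84% were). Between Gcg-positive and Chgb-positive hormone-low cells, 0 passed, where 0.674% of all genes were higher and 0.674% lower. At an unadjusted p under 0.05 in edgeR there were 3. DESeq2 called 0 and gave no adjusted p for 33 of the 53. Pak3 was the 1 effector (1.89%) that was higher in insulin-high cells than in Chgb-positive hormone-low cells (0.59 ± 0.17, edgeR adjusted p = 0.0487), where 1.94% of all genes were. It was also the 1 that was higher than in Gcg-positive cells (0.88 ± 0.20, edgeR adjusted p = 0.00270), where 1.92% were. In these 2 comparisons 0 effectors were lower, where 0.872% and 1.14% of all genes were (1 and 4 at an unadjusted p under 0.05 in edgeR, 0 by DESeq2). DESeq2 gave no adjusted p for 23 of the 53 against Gcg-positive cells.

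The 29 members that did not pass the filter peaked at group means of 4.39 to 31.3 CPM. They included Ntn1, the netrin best known from the nervous system, Efnb2, Epha2, Sema7a and Unc5b, and no comparison between groups was made for them. A gene and its partner on the other strand cannot be told apart where the counting ignores strand, which the sources used here do not give: among members that passed the test, exons of Ephb4, Plxna1 and Unc5a overlap Zan, Gm26811 and Hk3 on the other strand, and Nrp1 overlaps Mir1903 on its own strand.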

How the data were processed

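Raw UMI counts per gene, as deposited, were analysed for both libraries; the authors used GRCm38, per the submitters' processing notes. How reads were aligned and counted, and whether by strand, is not given in the sources used here. Library totals were 1910588 and 3425983 UMIs over 535 and 1100 barcodes, of which 3 barcode names occur in both.

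Cells with at least 1000 UMIs, 500 genes and at most 20% mitochondrial UMIs were kept, and Scrublet calls (13 and 11 cells, scanpy 1.11.5) were removed. Cells were gated in this order: Csf1r at least 2 UMIs, Cpa1 10, insulin genes 20, Gcg 5, Chgb with Neurog3 5 each (left out), Chgb 5, Neurog3 5, Spp1 3. The quasi-likelihood test of edgeR 4.0.16, in R 4.3.3, was run on the 10 sums of the 5 groups, scaled by TMM and filtered by filterByExpr; the model held group and library and left 4 residual degrees of freedom. Gate genes were left out of the tests. P-values were adjusted by Benjamini-Hochberg over 10089 genes at 0.05. Each SE is the absolute log2 fold change divided by the square root of the test's F statistic. It is therefore not independent of the p-value. Library entered as a block because both groups of each comparison come from the same 2 libraries. Printed levels are plain CPM. Named genes are the members past that threshold with the same sign in both libraries, the members at 50 CPM in both libraries of a group of 20 or more cells each, and per comparison at most the 4 effectors with the lowest adjusted p past it. Where libraries are taken singly, folds come from TMM-scaled CPM with a pseudocount of 1 CPM added, and no test was made. They can differ from folds of the printed levels. Alternatives included DESeq2 1.42.0, other gates, and cells left out. The members, gene lists and gates were chosen with earlier results of these data known. The fit was tested on simulated data. Positions are from GENCODE and promoters from RefSeq.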

Additional observations from a re-analysis of the deposited data

How the results depend on the processing

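Over 22 member results and up to 13 alternatives, 210 of 274 values kept the call, 64 lost it and 0 reversed, and 0 of 44 values from one library alone reversed. 5 results kept the call in every alternative that tested them: Sema3g from trunk to Neurog3-high cells, Sema3g and Ntn4 from there to Chgb-positive hormone-low cells, and Ephb4 and Sema3c from trunk to those cells. Sema3g and Ephb4 fell under the filter on low counts, and so were not tested, once cells with other-lineage UMIs were left out, and Ephb4 also without cycling cells and after thinning. RLE size factors changed no call. Without the replicate block the member counts were 2, 5, 10, 1, 0 and 1, against 2, 6, 11, 1, 1 and 1, in the order of comparisons in the report. From trunk to Neurog3-high, DESeq2, leaving out cells with other-lineage UMIs, and thinning each gave 1, and gates on scaled UMIs gave 4. From there to Chgb-positive hormone-low, DESeq2, leaving out other-lineage cells, leaving out cycling cells, and thinning each gave 2. From trunk to Chgb-positive hormone-low, the counts were 3 by DESeq2, 4 without other-lineage cells and 5 thinned. For Gcg-positive, DESeq2, halved thresholds, the fit of 7 groups, and leaving out other-lineage or cycling cells gave 0, and scaled gates, doublets kept, no filter and doubled thresholds gave 2. For insulin-high against Chgb-positive hormone-low, the count was 0 under every alternative but RLE and leaving out cells of 2 lineage gates, which gave 1 (4 members had an unadjusted p under 0.05 in edgeR). For insulin-high against Gcg-positive, it was 0 without other-lineage cells and 2 with doublets kept or thresholds halved. Apart from the shares given above for Neurog3-high to Chgb-positive hormone-low cells, these counts stand without the share of all genes under each alternative. They do not show whether an excess over that share was kept. The causes were not tested. Leaving out 1 library left no residual degrees of freedom. Low depth limits all members: the 40 tested had 82 to 1109 UMIs.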

Other observations

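Some cells held hormone transcripts that were not used for gating, and the guidance genes were read in them by values chosen after they were seen. In cells with at least 5 Sst UMIs (somatostatin, 4 and 30 cells), Unc5c, a netrin receptor, stood at 354 CPM (interval 130 to 770, 6 UMIs) and 173 CPM (99.0 to 281, 16 UMIs), against 41.4 to 58.6 CPM in the trunk and 140 and 18.2 CPM in Gcg-positive cells, of which the first lies inside both intervals. In cells with at least 5 Ghrl UMIs (ghrelin, 10 and 21 cells), Plxnb2 was at 301 and 444 CPM, and Ntn4 was at 0 UMIs in both libraries. From so few cells, 0 UMIs does not show that Ntn4 is absent. Ntn4 within the trunk was at 31.5 CPM in cycling and 36.1 CPM in other cells of library 1, and at 20.3 and 95.6 CPM in library 2, so the libraries differ in this split. No test was made of these values.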
